A study of Mus musculus with 12 samples.

Results

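Lung metastases were compared with primary kidney tumors of mice in which Lats1 and Lats2 had been deleted in kidney epithelium. The 6 libraries were 3 of lung metastasis and 3 of primary tumor, out of 12 libraries in the series, chosen by their labels. Both groups had the genotype Slc34a1CreERT2;Lats1/2flox/flox on a mixed background. The mice received 3 injections of tamoxifen at 1 month of age, and tumors and metastases were dissected 4 months later. The other 2 groups served here as references and were fitted together with these 6 libraries, so they also entered the estimate of spread. Allograft tumors (n = 3) had grown for 6 weeks from Lats1-/-;Lats2-/- cells placed under the renal capsule of NOD/scid hosts 6 to 8 weeks old, which lack T and B cells. Proximal tubule cells (n = 3) had been sorted from adult mice with the genotype Slc34a1CreERT2;Lats1c/c;Lats2c/+;RosaTomato, and so carried conditional Lats alleles too. Slc34a1 drives Cre in the proximal tubule, and tamoxifen makes this Cre active. The metastases and primary tumors are pieces of tissue, so their RNA comes from tumor cells, stroma, blood and whatever kidney or lung was dissected with them.

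LATS1 and LATS2 are the kinases at the end of the Hippo pathway, which hold the coactivators YAP and TAZ out of the nucleus; without them YAP and TAZ bind TEAD factors and switch on targets such as Ccn1, Ccn2 and Ankrd1. The kidney tubule that surrounds a primary tumor takes up filtered solutes with transporters such as Slc34a1, and the thick ascending limb secretes uromodulin. The lung that surrounds a metastasis is built from alveolar type 1 cells for gas exchange, type 2 cells that make surfactant, and airway club and ciliated cells.

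Levels are FPKM as deposited, a read abundance scaled by transcript length and library size, so levels of different genes can be compared per length. Changes are log2 differences of FPKM + 1, metastases minus primary tumors, ± SE with 3 libraries on each side. This scale understates the change of genes with few fragments. The SE and p-values rest on a spread pooled over the 12 libraries of all 4 groups. Libraries of a group correlated at 0.797 to 0.928 in primary tumors and at 0.961 to 0.969 in sorted tubule cells. A gene is said to have risen or fallen where limma gave a Benjamini-Hochberg adjusted p under 0.05. Steps between low values put the libraries at 16.4, 14.1 and 15.4 M (mega) fragments for the primary tumors and 18.2, 15.4 and 14.5 M for the metastases. At that depth 1 fragment on a transcript of 2 kb was worth 0.0275 to 0.0355 FPKM. Levels below about 0.1 FPKM on such a transcript therefore rest on 1 to 3 fragments. Where 3 values are set against 3 others, those of primary tumors 1 to 3 come first and those of metastases 1 to 3 second. Nothing in the labels says which metastasis came from which mouse, or that replicates came from separate mice, so the p-values measure the spread between these libraries.

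Of 16313 genes tested, 1849 were higher in metastases (11.3%) and 1565 lower (9.59%). With only the 6 metastasis and primary tumor libraries fitted, the counts were 712 and 463. With libraries scaled to equal levels of the graft class defined below, the split was 719 and 6513, since this scaling moved the median of all genes to -0.97. The primary tumors differed widely, and leaving out any 1 of the 6 libraries moved the counts by over 1.5 times. Without primary tumor 1 they were 3299 and 2969, and without any 1 of the other 5 libraries 849 to 1106 and 705 to 986. With the fit held to primary tumor 1 alone, 603 genes were higher (3.7%) and 552 lower (3.38%); that fit assumes that the lone library varies like the other groups. Primary tumor 1 correlated with the metastases at 0.880 to 0.898 over 16313 genes, primary tumor 3 at 0.739 to 0.745 and primary tumor 2 at 0.688 to 0.698, as a description across genes. Results are therefore given against all 3 primary tumors and, for most, against primary tumor 1 alone. Called or not, 21.9% of all genes had all 3 metastases above all 3 primary tumors, and 20.1% had them below. Some genes named further on were picked by a rule that required such a gap.

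The labels were checked on the targeted and sex-linked genes. Lats1 stood at 12.3, 13.04 and 14.7 against 9.54, 10.4 and 10.7 FPKM (not called, -0.36 ± 0.15, adjusted p = 0.106). Lats2 was at 19.5, 12.97 and 21.4 against 22.5, 19.9 and 22.4 (not called, 0.28 ± 0.19, adjusted p = 0.326). A gene-level FPKM does not resolve the floxed exons, so these levels check no deletion. Xist had 163, 0.323 and 0.374 FPKM in primary tumors 1 to 3 and 94.8, 87.9 and 96.9 in metastases 1 to 3. Y-linked Ddx3y had 0.112, 29.98 and 20.5 against 0.133, 0.259 and 0.169. Primary tumors 2 and 3 thus had a male pattern and primary tumor 1 and all 3 metastases a female one, so sex and the other differences of primary tumors 2 and 3 cannot be told apart. By this pattern no metastasis came from the mouse of primary tumor 2 or 3. Kap and Cyp4a12a, kidney genes known to respond to androgen, followed the same libraries: Cyp4a12a was at 0.248, 91.2 and 22.6 against 0.0439, 0 and 0.0561 FPKM.

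Metastases held almost none of the RNA of the proximal tubule. Of the 30 proximal tubule genes listed, 23 fell and none rose, with a median change of -4.89 beside 0.01 over all genes tested. The median level of these genes, set against the sorted tubule cells, was 2.43, 119.7 and 27.2% in primary tumors 1 to 3 and 0.152, 0.287 and 0.223% in metastases 1 to 3; the allografts had 0.389, 0.568 and 0.228%. Among primary tumors the level was highest in primary tumor 2 and lowest in primary tumor 1. The sorted libraries sum to 706093 to 738052 FPKM against 1352265 to 2527747 in the other 9 and show no steps between low values, so a percentage set against them depends on how they were scaled. As a share of protein-coding FPKM, the tubule class defined below made up 41.7, 42.9 and 41% in the sorted cells and 28.9% in primary tumor 2. In bulk tissue, fewer tubule cells and less RNA per cell cannot be told apart. The count was 29 without primary tumor 1 and 14 to 17 without any 1 of the other 5 libraries, and the median against primary tumor 1 alone was -1.39. With only the metastases and primary tumors fitted, the count was 5.

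**Figure D1:**
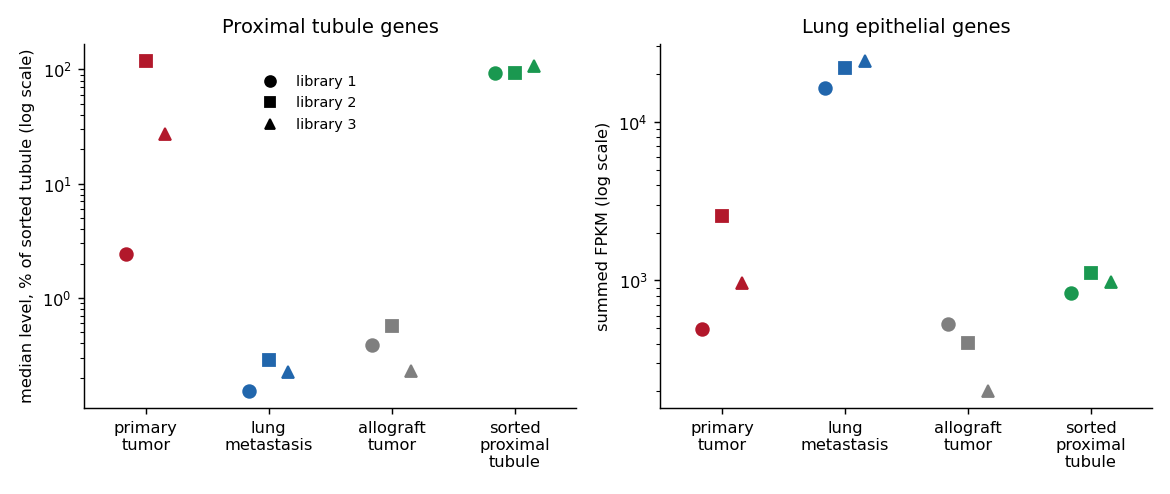
Left, median level of 30 proximal tubule genes in each of 12 libraries as percent of the mean of the sorted tubule cells, log scale; right, summed FPKM of 45 genes of lung alveolar and airway epithelium, log scale; 1 point per library, shape by library number. The 3 metastases lie at 0.152 to 0.287% for tubule genes and at 16322 to 24345 FPKM for lung genes, and the primary tumors run from 2.43% to 119.7% for tubule genes.

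Kap, a small secreted protein of the tubule, had the largest fall of any gene named here, from 112, 53375 and 12895 FPKM in primary tumors 1 to 3 to 1.33, 2.88 and 2.04 in the metastases (-10.47 ± 1.78, adjusted p = 0.00287). Slc34a1 itself, the phosphate transporter whose promoter drove Cre, went from 6.17, 833 and 166 to 0.0169, 0.0609 and 0.0951 FPKM (-6.56 ± 1.27, adjusted p = 0.00604). Every metastasis lay below every primary tumor for both genes, as for 20.1% of all genes. Both were also lower against primary tumor 1 alone (Kap -5.23, Slc34a1 -2.76). Hao2, a peroxisomal hydroxyacid oxidase, had 18.4, 363 and 73.2 FPKM in the primary tumors, and each metastasis listed it at 0. Of the 7 tubule genes not called, Lrp2 overlapped primary tumor 1 in the metastases, and Aqp1 and Cyp4b1 lay above it. Lrp2, the endocytic receptor megalin, was at 35.9, 472 and 108 against 39.9, 33.1 and 30.4 FPKM (-1.81 ± 0.72, adjusted p = 0.0986). Aqp1, a water channel of tubule and endothelium, was at 83.2, 241 and 223 against 180.0, 141 and 153 FPKM, and the cytochrome P450 gene Cyp4b1 at 9.28, 2333 and 381 against 41.7, 67.3 and 124. Lung cells are known to express these 3 genes too.

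Many genes of the rest of the nephron fell in the metastases too. Of 12 genes of the thick ascending limb 11 fell (median -4.05), of 8 of the distal convoluted tubule 6 (median -4.07), of 11 of principal cells 6 (-1.53) and of 10 of intercalated cells 6 (-2.51); none of these rose. The thick limb count was 12 without primary tumor 1 and 7 to 9 without any 1 other library. Against primary tumor 1 the 4 medians were -1.82, -2.35, -0.52 and -1.42, and in a fit held to that tumor 3 principal cell genes and 1 intercalated cell gene were higher in the metastases. Summed levels of principal cell genes were 63.8, 482 and 1629 against 91.03, 70.7 and 71.4 FPKM, so the metastases lay above primary tumor 1 and below the other two. Umod, which encodes uromodulin, was at 209, 1140.3 and 2278 FPKM in the primary and 0.0409, 0.0739 and 0.0523 FPKM in the metastatic tumors (-9.6 ± 0.76, adjusted p = 1.84e-05). The salt transporter Slc12a1 of the same segment went from 44.9, 342 and 1089 to 0.0594, 0.0922 and 0.0506 FPKM (-7.92 ± 0.86, adjusted p = 1.58e-04). The thiazide-sensitive transporter Slc12a3 of the distal tubule went from 26.8, 145 and 41.3 to 0.341, 0.453 and 0.421 (-5.31 ± 0.54, adjusted p = 1.01e-04). In the collecting duct the water channel Aqp2 fell from 2.77, 192 and 829.8 to 0.0818, 0.197 and 0.0522 FPKM (-6.25 ± 1.45, adjusted p = 0.0146). Without primary tumor 2 Aqp2 missed the threshold (adjusted p = 0.0539). Atp6v1g3, a proton pump subunit of intercalated cells, fell from 12.97, 29.3 and 26.6 to 0.525, 0.456 and 0.484 (-3.93 ± 0.27, adjusted p = 6.88e-06). Primary tumor 1, with 2.43% of the proximal tubule level, still held 209 FPKM of Umod.

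Renin and some glomerular genes fell as well, with exceptions among stromal and lung-expressed genes. Of 11 podocyte genes 5 fell. Nphs1, nephrin of the slit diaphragm, was at 4.93, 11.5 and 5.92 FPKM in the primary and 0.271, 0.202 and 0.113 FPKM in the metastatic tumors (-2.74 ± 0.25, adjusted p = 4.72e-05). Clic5, which is on the podocyte and the alveolar type 1 lists, was higher (1.34 ± 0.36, adjusted p = 0.0266), but not without primary tumor 3, metastasis 2 or metastasis 3 (adjusted p up to 0.0957). Ren1, the renin gene of the afferent arteriole, fell from 19.5, 39.7 and 24.6 to 0, 0.0979 and 0.104 FPKM (-4.7 ± 0.29, adjusted p = 3.80e-06) and was -4.26 against primary tumor 1. Of 6 genes of renin cells and glomerular vessels 3 fell and 3 rose, the latter being the factor genes Foxd1 (0.93 ± 0.26, adjusted p = 0.0307), Tbx18 (1.36 ± 0.31, adjusted p = 0.0129) and Gata5 (0.51 ± 0.15, adjusted p = 0.0364). On the graft class scale described further on, the sign of Gata5 turned (-0.24). None of these 3 rises was called in all 6 fits that left out 1 library (adjusted p up to 0.113, 0.0536 and 0.12). In all, of 88 kidney segment and glomerular genes tested 60 fell and 4 rose, and 45 of 90 listed genes were under 1 FPKM in every metastasis.

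Every metastasis held abundant RNA of genes that mark normal lung. Of 77 genes of lung cell types and lineage factors tested 61 rose and none fell, against 11.3% of all genes. Of the 79 such genes listed, 30 were under 1 FPKM in every primary tumor. Genes of that kind could pass the filter through the 3 metastases alone and could then hardly fall. The count is therefore a description and not a test. The 45 genes of alveolar and airway epithelium summed to 16322, 21746 and 24345 FPKM in metastases 1 to 3. Primary tumors 1 to 3 had 496, 2531 and 966, the allografts 531, 404 and 199.9 and the sorted cells 831, 1119.5 and 977. They made up 3.14, 4.12 and 4.68% of the FPKM of protein-coding genes in the metastases. Most of the sum in primary tumors 2 and 3 and the sorted cells came from Napsa, S100g and Abca3, which kidney expresses as well: Napsa was at 72.7, 859.5 and 424 against 157, 176 and 182 FPKM and was not called.

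Among surfactant genes of type 2 cells, Sftpc stood at 0.583, 0.809 and 0.308 FPKM in the primary and 3851, 5344 and 5694 FPKM in the metastatic tumors (11.62 ± 0.4, adjusted p = 3.07e-08). Sftpb went from 0.0868, 0.341 and 0.0466 to 769, 901 and 970.0 FPKM (9.57 ± 0.18, adjusted p = 5.62e-10). Lamp3, a lysosomal protein of the lamellar bodies, went from 0.0174, 0.0415 and 0.0737 to 102, 126 and 131 (6.84 ± 0.13, adjusted p = 5.62e-10). Of the 14 type 2 genes 11 rose, with a median of 6.53, and all 11 kept their call in each fit that left out 1 library. All 10 type 1 genes rose (8 to 9 without any 1 library other than primary tumor 1). Ager, a receptor on type 1 cells, was at 5.19, 5.35 and 2.94 FPKM in the primary and 627, 690.2 and 787 FPKM in the metastatic tumors (7.03 ± 0.21, adjusted p = 1.18e-08). The club cell secretoglobin Scgb1a1 was the most abundant lung gene, at 0.985, 1.46 and 0 against 6438, 9267 and 11197 FPKM (12.33 ± 0.42, adjusted p = 3.07e-08). The other secretoglobin genes Scgb3a1 and Scgb3a2 rose to 460.1, 337 and 348 and 383, 611 and 559 FPKM. All 11 ciliated cell genes rose, led by Sec14l3 at 0.235, 2.23 and 1.65 against 90, 136 and 169 FPKM (5.87 ± 0.36, adjusted p = 3.62e-06).

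Lung lineage factors and some genes of lung mesenchyme rose alongside them. Of 6 lung fibroblast genes tested 2 rose, Hhip (2.43 ± 0.26, adjusted p = 1.48e-04) and Mfap4 (3.27 ± 0.43, adjusted p = 5.48e-04), and the other 4 were not called. Of 9 lung lineage factors 8 rose. Nkx2-1, the master factor of lung epithelium, stood at 0.187, 0.732 and 0.905 FPKM in the primary and 12.2, 15.8 and 16.4 FPKM in the metastatic tumors (3.31 ± 0.53, adjusted p = 0.002). Foxf1, a factor of lung mesenchyme and endothelium, went from 1.61, 0.295 and 0.446 to 12.3, 18.4 and 26.3 FPKM (3.5 ± 0.3, adjusted p = 3.54e-05). Tbx4 of lung mesenchyme went from 0.0597, 0.0236 and 0 to 6.73, 10.1 and 10.6 (3.28 ± 0.17, adjusted p = 7.17e-07). Tbx2, which the sorted tubule cells held at 21.8, 27.8 and 19.9 FPKM, was not called (0.28 ± 0.38, adjusted p = 0.628). Of 9 lung endothelial genes 5 rose, such as Gpihbp1, which anchors lipoprotein lipase on capillaries (2.66 ± 0.33, adjusted p = 3.82e-04). Of 9 alveolar macrophage genes 7 rose, led by the chitinase-like Chil3 (3.14, 0.199 and 0.133 against 218, 417 and 447 FPKM, 7.6 ± 0.59, adjusted p = 1.58e-05). Myh6, a heart muscle myosin that mouse pulmonary veins also express, was at 0.00935, 0.122 and 0.219 against 69.4, 68.5 and 99.5 FPKM (6.15 ± 0.33, adjusted p = 1.39e-06), and at 32.97, 32.5 and 11.8 in the allografts.

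The 3 metastases were not alike in how much lung RNA they held. Metastasis 1 was the lowest of the 3 for 66 of the 77 lung genes (85.7%), including all 14 type 2 and all 11 ciliated genes, against 38.5% of all genes tested. The same library was the highest for 17 of 18 glycolysis genes (94.4%), 14 of 18 hypoxia genes (77.8%), 14 of 18 collagen genes and 10 of 13 posterior Hox genes, against 38.6% of all genes. It also held the most of the kidney lineage genes Cdh16 (62.3, 20.1 and 20.9 FPKM in metastases 1 to 3) and Pax8 (25.3, 15.9 and 13.6). Metastasis 2 was the highest for all 21 mitosis genes and 19 of 21 replication genes. These are orders within 1 library each, and no test was made of them.

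To part kidney and graft genes without using the contrast itself, genes were classed by the allograft tumors and sorted tubule cells alone. The allografts also held RNA of other cell types: macrophage genes summed to 7943, 4415 and 2008 FPKM there and to 9.64, 9.61 and 9.22 in sorted cells. The graft class can thus hold host genes, and neither its share nor the scale set by it measures tumor cells alone. The tubule class (at least 5 FPKM in sorted tubule cells and at least 3 log2 units above the allograft tumors) held 633 genes, of which 451 fell (71.2%) and 3 rose, median -2.47. The graft class, the mirror image, held 1323 genes, of which 450 rose (34%) and 16 fell, median 1.04. The shared class, at 5 FPKM or more in both and within 1 log2 unit, held 4459 genes with 89 higher and 189 lower (2% and 4.24%), median -0.11. Against primary tumor 1 alone the medians were -0.83 in the tubule class, 0.19 in the graft class and 0.00 in the shared class, and the graft class lay at 1.6 and 1.33 against primary tumors 2 and 3. Without primary tumor 1 the called counts were 575 tubule and 806 graft genes, and without any 1 of the other 5 libraries 256 to 319 and 117 to 156. Graft class genes made up 14.2, 2.66 and 4.68% of protein-coding FPKM in primary tumors 1 to 3 and 15, 15.7 and 15.3% in the metastases, and tubule class genes 3.29, 28.9 and 19.8% and 1.89, 2.26 and 2.34%. The share of kidney RNA thus moved with the contrast in primary tumors 2 and 3, and its part in the results that follow was not tested. On the scale set by the graft class, several lists with a median change between 0 and about 1 turn negative, among them Hippo components (-0.77), YAP/TAZ targets (-0.49), glycolysis (-0.62), hypoxia (-0.32) and endothelium (-0.18), against -0.97 for all genes. Kidney, lung, Hox, mitosis, replication and collagen lists keep their sign.

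**Figure D2:**
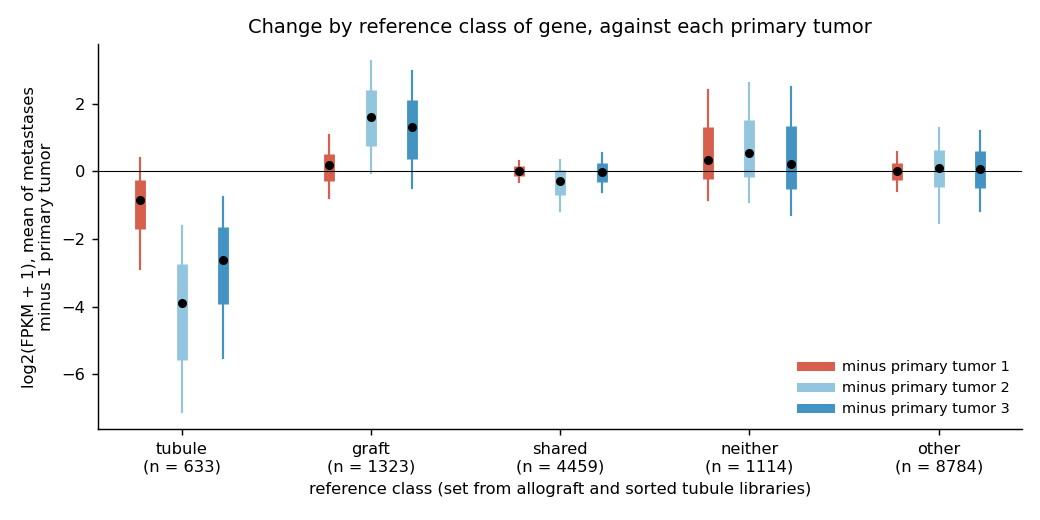
Log2(FPKM + 1) of the mean of 3 metastases minus each single primary tumor, for 5 classes of genes set from the allograft and sorted tubule libraries; black points are medians, thick bars the interquartile range and thin lines the 10th to 90th percentile. The tubule class lies at -0.83 against primary tumor 1 and at -3.89 and -2.62 against primary tumors 2 and 3, and the graft class at 0.19, 1.60 and 1.33.

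RNA of several kidney lineage genes was lower in the metastases but not absent. In bulk tissue, less dissected kidney and lower levels in the tumor cells cannot be told apart. Of 12 renal lineage factor genes tested 7 fell and 2 rose. The risen genes, the early kidney factors Osr1 (1.49 ± 0.46, adjusted p = 0.0439) and Eya1 (1.02 ± 0.29, adjusted p = 0.0336), were called without primary tumor 1 but not without any 1 other library (adjusted p up to 0.145 and 0.113). Hnf4a, the main factor of the differentiated proximal tubule, went from 9.104, 167 and 54.4 to 0.0696, 0.242 and 0.0641 FPKM (-5.34 ± 0.76, adjusted p = 9.91e-04). Sall1, a factor of nephron progenitors and tubules, went from 4.51, 6.54 and 10.6 to 0.458, 0.516 and 0.451 (-2.41 ± 0.25, adjusted p = 1.05e-04). Pax8, a nephron lineage factor and clinical marker of renal carcinoma, stayed at 25.3, 15.9 and 13.6 FPKM in the metastases against 40.01, 30.6 and 48.7 in the primary tumors (-1.1 ± 0.3, adjusted p = 0.0304). Its call was lost without primary tumor 3, metastasis 2 or metastasis 3 (adjusted p = 0.023 to 0.111 over the 6 such fits). For Pax8 the metastases lay within or above the range of the allograft tumors (7.22, 16.8 and 12.2 FPKM), which held 0.228 to 0.568% of the tubule level. Cdh16, the kidney-specific cadherin, fell from 189, 452 and 489 to 62.3, 20.1 and 20.9 FPKM (-3.5 ± 0.63, adjusted p = 0.00388), with 2.16, 9.09 and 0.8201 in the allografts. Pax2 was not called (3.76, 2.399 and 13.8 against 2.75, 1.67 and 2.19 FPKM, -0.97 ± 0.53, adjusted p = 0.213).

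Posterior Hox genes, which mark the position of the kidney along the body axis, fell nearly as a block. Of 13 posterior genes 12 fell (median -1.59) and of 14 anterior genes 9 (median -0.85); none rose. The anterior count was 9 without primary tumor 1 and 5 to 8 without any 1 other library, with the lowest value without primary tumor 3, metastasis 2 or metastasis 3. The posterior count was 12 without primary tumor 1 and 10 to 12 without any 1 of the other 5 libraries, and the median against primary tumor 1 alone was -1.51. Unlike the tubule genes, these were about as far from primary tumor 1 as from primary tumors 2 and 3 (-1.47 and -1.9). This was not particular to Hox genes. Podocyte genes had medians of -0.83, -1.35 and -0.70 against primary tumors 1 to 3, and renal lineage factors -1.13, -1.56 and -1.89. The part of dissected kidney in the Hox falls was not tested. Hoxd8 (chr2:74704615-74707933 in GRCm38) stood at 26.3, 61.8 and 59.8 FPKM in the primary and 2.75, 1.59 and 1.96 FPKM in the metastatic tumors (-3.94 ± 0.3, adjusted p = 1.36e-05). The allografts held 20.8, 20.4 and 17.02 FPKM and the sorted tubule cells 26.7, 36.1 and 34.7. Hoxd10 (chr2:74691924-74695105) went from 7.71, 8.69 and 12.4 to 0.0298, 0.0718 and 0.0761 FPKM (-3.3 ± 0.22, adjusted p = 5.68e-06), and the allograft tumors held 5.798, 9.25 and 7.13. For both genes the 3 metastases were the lowest of the 12 libraries. Hoxd4 (8.75, 12.2 and 19.9 to 0.516, 0.298 and 0.237 FPKM, -3.37 ± 0.27, adjusted p = 1.94e-05) and Hoxd3 (4.02, 3.65 and 8.92 to 0.05398, 0.0866 and 0, -2.55 ± 0.37, adjusted p = 0.00105) lie in the same cluster. Hoxb9 was not called (21.7, 8.98 and 25.2 against 16.5, 11.2 and 8.74 FPKM, -0.5 ± 0.38, adjusted p = 0.368). Hoxa5, which lung mesenchyme expresses, was not called either, at 6.43, 5.48 and 8.34 against 6.45, 8.15 and 7.94 FPKM (0.15 ± 0.29, adjusted p = 0.761).

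**Figure D3:**
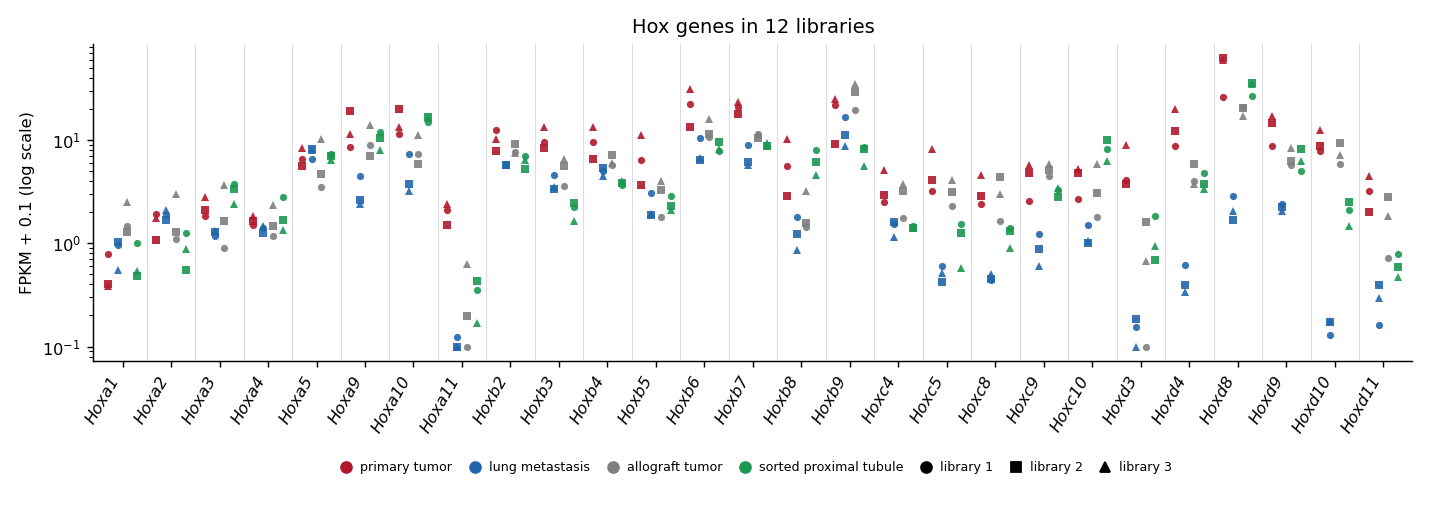
FPKM + 0.1 of 27 Hox genes in 12 libraries, log scale; color marks the group and shape the library number. Metastases lie below every primary tumor for Hoxd3, Hoxd4, Hoxd8, Hoxd10, Hoxc5 and Hoxa11, as for 20.1% of all genes, while Hoxa5 and Hoxb9 overlap.

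Some Hippo pathway genes and YAP/TAZ targets rose, and both lists lay closer to primary tumor 1 than to primary tumors 2 and 3. Of 21 Hippo components 5 rose and none fell, beside 11.3% and 9.59% of all genes (median 0.3, 0.1 against primary tumor 1). The count was 9 without primary tumor 1 and 1 to 3 without any 1 other library, and 0 on the graft class scale and in the fit held to primary tumor 1 (limma, 3 at an unadjusted p under 0.05 in the latter). Tead4, a DNA-binding partner of YAP, rose from 1.76, 0.5899 and 1.299 to 3.52, 2.73 and 3.65 FPKM (0.99 ± 0.21, adjusted p = 0.00882). Yap1 was at 26.9, 28.7 and 29.5 against 26.4, 24.6 and 25.3 FPKM (not called, -0.15 ± 0.24, adjusted p = 0.693). Wwtr1, which encodes TAZ, was at 32.6, 30.8 and 25.3 against 43.8, 44.2 and 46.7 (0.6 ± 0.15, adjusted p = 0.0201). The call of Wwtr1 was lost without primary tumor 3 or any 1 metastasis (adjusted p up to 0.0768), and its sign turned on the graft class scale. Of 24 targets 5 rose and none fell, with a median of 0.58 and of 0.12 against primary tumor 1; 12 rose without primary tumor 1 and 2 to 3 without any 1 other library.

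Among the targets, Ccn1, a matricellular protein, stood at 87.3, 20.6 and 27.1 FPKM in the primary and 148, 158 and 152 FPKM in the metastatic tumors (2.03 ± 0.49, adjusted p = 0.0177). Ankrd1, a muscle ankyrin protein that is among the most responsive YAP/TAZ targets, was at 27.9, 3.26 and 4.74 against 53.3, 48.8 and 49.7 (2.53 ± 0.59, adjusted p = 0.015), against 462, 294 and 442 in the allografts. Without primary tumor 2 the adjusted p was 0.0621 for Ccn1 and 0.051 for Ankrd1, and without primary tumor 3 it was 0.0715 and 0.0646. Ccn1 was not called without any 1 of the metastases either (adjusted p up to 0.0715). Amotl2, an angiomotin-like YAP partner, was at 89.7, 24.9 and 30.7 against 162, 98.7 and 97.8 FPKM (1.48 ± 0.4, adjusted p = 0.0268) and was called without primary tumor 1 but not without any 1 other library (adjusted p up to 0.102). Tgfb2, a growth factor gene on the target list, rose from 6.58, 1.29 and 1.21 to 13.1, 11.8 and 11.1 FPKM (1.94 ± 0.39, adjusted p = 0.00752) and kept its call in all 6 of these fits. Ccn2 (183, 48.6 and 68.1 against 125, 99.2 and 97.4 FPKM) and the receptor kinase Axl (205, 46.6 and 48.1 against 201, 198 and 159) were not called. For both, the metastases lay between primary tumor 1 and primary tumors 2 and 3.

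Of the 5 targets that rose, 3 carry the core TEAD motif GGAATG or its reverse complement CATTCC in the 250 bases before their RefSeq start, and these stretches are shown because the 3 targets moved together. Capitals mark the motif; the strand is that of the gene, in GRCm38.p6, with Ccn1 at chr3:145649986-145650235 (minus strand), Ankrd1 at chr19:36119845-36120094 (minus strand) and Amotl2 at chr9:102717554-102717803 (plus strand).
Ccn1: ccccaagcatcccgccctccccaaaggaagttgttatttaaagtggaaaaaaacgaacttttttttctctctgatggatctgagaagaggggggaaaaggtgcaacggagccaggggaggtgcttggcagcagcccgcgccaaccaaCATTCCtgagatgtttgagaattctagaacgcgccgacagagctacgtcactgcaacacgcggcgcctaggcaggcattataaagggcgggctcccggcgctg
Ankrd1: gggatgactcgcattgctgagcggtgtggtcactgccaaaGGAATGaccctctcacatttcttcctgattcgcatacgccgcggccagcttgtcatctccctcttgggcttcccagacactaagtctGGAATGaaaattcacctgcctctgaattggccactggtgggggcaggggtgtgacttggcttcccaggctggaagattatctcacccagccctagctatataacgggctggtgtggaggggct
Amotl2: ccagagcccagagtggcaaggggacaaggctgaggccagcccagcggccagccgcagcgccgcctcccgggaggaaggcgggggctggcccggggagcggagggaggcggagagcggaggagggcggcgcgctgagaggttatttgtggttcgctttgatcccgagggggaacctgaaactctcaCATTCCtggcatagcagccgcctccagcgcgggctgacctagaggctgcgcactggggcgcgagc
The motif on either strand was in 9 of 19 windows of 17 YAP/TAZ targets found in the table (300 bases, 250 before to 50 after the start), against 4817 of 32851 windows of all genes (14.7%). Such a share was not particular to the targets. In other lists it ran from 0% (AP-1 and immediate early genes) to 50% (5 of 10 windows of muscle genes), with 10 of 23 windows for Hippo components. A match is a string of letters and shows no binding. Of the other motifs searched, the exact HNF1 motif was in 3 of all windows (0.0091%), the HNF4 motif CAAAGTCCA in 156 (0.475%) and AP-1 (TGANTCA) in 2565 (7.81%). No proximal tubule gene among 26 found had the HNF1 or HNF4 motif in this window. Both motifs are so rare in all windows that their absence from 31 tubule windows says nothing about these genes.

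Proliferation genes stood well above primary tumors 2 and 3 in the metastases and near primary tumor 1. Of 21 mitosis genes 19 rose (median 1.93) and of 21 replication genes 16 (median 1.24); none fell. Against primary tumor 1 the medians were 0.51 and 0.26, and limma called no gene of either list there (unadjusted p under 0.05 for 1 and 0). The counts were 21 and 20 without primary tumor 1 but 0 to 3 and 0 to 2 without any 1 of the other 5 libraries. Mki67, the proliferation antigen Ki-67, was at 28.7, 3.74 and 6.34 FPKM in the primary and 33.4, 37.99 and 33.5 FPKM in the metastatic tumors (1.83 ± 0.54, adjusted p = 0.0372). Top2a, the topoisomerase of dividing cells, was at 38.4, 4.31 and 4.81 against 51.7, 60.96 and 53.3 FPKM (2.4 ± 0.65, adjusted p = 0.0281). Both were called without primary tumor 1 but not without any 1 other library (adjusted p up to 0.129 and 0.108). The metastases lay above all 3 primary tumors for both genes, as for 21.9% of all genes, by 0.27 and 0.51 log2 units above primary tumor 1. The cell cycle inhibitor gene Cdkn2d rose (7.55, 5.65 and 5.12 to 11.8, 13.5 and 12.2 FPKM, 0.94 ± 0.18, adjusted p = 0.00662, -0.05 on the graft class scale). Cdkn2a, high in the allografts (50.9, 24.2 and 54.1 FPKM), was at 0.898, 1.09 and 1.297 against 1.45, 0.913 and 1.02 (not called). Myc was not called (0.78 ± 0.46, adjusted p = 0.249).

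**Figure D4:**
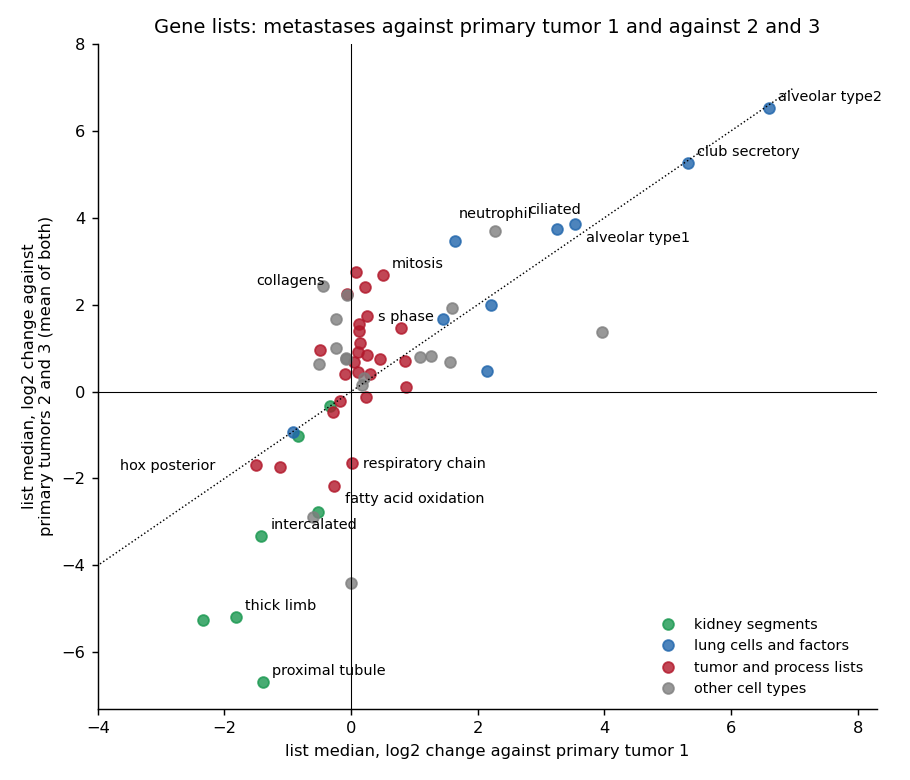
Median log2 change of each of 59 gene lists, metastases minus primary tumor 1 (x axis) and minus primary tumors 2 and 3 (y axis, mean of both medians); the dotted line marks equal change. The type 2 and club lists lie near the line, as do posterior Hox genes (the anterior Hox list is colored with the lung lists), and mitosis, at 0.51 against primary tumor 1, lies far above it.

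Epithelial and mesenchymal genes were both present at high level in the tissue. Genes of lung epithelium made up 3.14 to 4.68% of protein-coding FPKM in the metastases. Which cells, of tumor or of lung, held the RNA of the genes below was not tested. Krt19, a keratin of simple epithelium, was at 61.7, 17.2 and 39.99 FPKM in the primary and 135, 153 and 144 FPKM in the metastatic tumors (2.01 ± 0.41, adjusted p = 0.0078), with 0.528, 0.206 and 0.444 in sorted tubule cells. Krt7 and Krt8 were not called (0.93 ± 0.36 and 0.14 ± 0.23). Cdh1, the epithelial cadherin, overlapped between the groups at 38.6, 44.2 and 71.04 against 49.4, 51.4 and 49.95 FPKM. Epcam, an epithelial adhesion molecule, was lower in each metastasis but not called, at 59.2, 45.2 and 119 against 21.6, 23.9 and 22.1. Of 24 junction genes 1 rose and 3 fell (5 without primary tumor 1 and 2 without any 1 other library), beside 11.3% and 9.59% of all genes. 1 of the fallen genes was Marveld2, a tricellular junction protein (-1.11 ± 0.22, adjusted p = 0.00646). Vim, the mesenchymal intermediate filament vimentin, was at 465, 67.9 and 76.02 FPKM in the primary and 994, 1045 and 937 FPKM in the metastatic tumors (2.87 ± 0.58, adjusted p = 0.00726, 1.09 against primary tumor 1). Of 17 mesenchymal genes 9 rose and none fell, with a median of 1.62 but 0.21 against primary tumor 1; 12 rose without that tumor and 2 to 3 without any 1 other library. Fn1, fibronectin, was at 285, 26.5 and 43.9 against 351, 288 and 304 FPKM (2.15 ± 0.67, adjusted p = 0.046), close to primary tumor 1 and far above the other two. It was called without primary tumor 1 but not without any 1 other library (adjusted p up to 0.154). Among 16 genes of tubule injury 3 rose (8 without primary tumor 1 and 1 without any 1 other library) and 1 fell. Prom1, which marks regenerating tubule cells, fell from 58.6, 35.8 and 62.2 to 7.21, 11.9 and 11.6 FPKM (-2.23 ± 0.54, adjusted p = 0.017, not called without primary tumor 3 or metastasis 1, adjusted p up to 0.0658). Spp1, osteopontin, was at 4779, 715 and 974 against 741, 768 and 502 (not called over all 3, -2.86 against primary tumor 1).

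Matrix genes moved in both directions. Eln, the elastic fiber protein elastin and abundant in lung, was at 8.77, 2.297 and 3.42 FPKM in the primary and 123, 108 and 100.3 FPKM in the metastatic tumors (4.41 ± 0.44, adjusted p = 8.31e-05). Col6a1, a chain of the microfibrillar collagen of many tissues, went from 52.97, 12.4 and 16.8 to 171, 118 and 113 FPKM (2.5 ± 0.42, adjusted p = 0.00261). Col7a1, the anchoring fibril collagen, rose (2.33 ± 0.47, adjusted p = 0.00711), and Col1a1 (1.48 ± 0.57, adjusted p = 0.0867) and Col3a1 (1.22 ± 0.77, adjusted p = 0.282) were not called. Of 18 collagen genes 6 rose, with medians of 1.38 over all 3 primary tumors and -0.07 against primary tumor 1; the count was 13 without primary tumor 1 and 3 without any other library. Against this, 3 secreted proteins of stroma fell. Thbs2, an antiangiogenic thrombospondin, was at 78.7, 17.2 and 9.17 FPKM in the primary and 2.701, 2.24 and 1.77 FPKM in the metastatic tumors (-2.93 ± 0.57, adjusted p = 0.00639, -4.63 against primary tumor 1). Smoc2, a matricellular protein, went from 94.7, 21.4 and 50.5 to 1.598, 1.99 and 2.72 FPKM (-3.97 ± 0.65, adjusted p = 0.00243, -4.96). The Wnt antagonist Sfrp1 fell from 31.3, 39.7 and 30.2 to 5.41, 9.46 and 11.4 (-1.87 ± 0.41, adjusted p = 0.0109, -1.78). All 3 metastases lay below all 3 primary tumors for these 3 genes, as for 20.1% of all genes.

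The plasminogen system split. Plau, the urokinase that activates plasminogen, fell from 188, 209 and 289.8 to 49.8, 43.8 and 31.5 FPKM (-2.43 ± 0.25, adjusted p = 1.06e-04), with 211, 241 and 326 in sorted tubule cells. Its receptor gene Plaur rose from 16, 3.99 and 7.304 to 37.3, 41.2 and 40.2 (2.19 ± 0.35, adjusted p = 0.00196). Plaur was also called against primary tumor 1 alone (1.25, adjusted p = 0.00536), and the allograft tumors held 41, 36.4 and 36.9 FPKM. Adam8, a metalloprotease of leukocytes and tumor cells, rose (11.4, 1.19 and 2.04 to 26.5, 26.3 and 19.9 FPKM, 2.52 ± 0.51, adjusted p = 0.00729). Of 20 integrin and laminin genes 6 rose and 2 fell. The risen count was 7 without primary tumor 1 and 1 to 2 without any 1 other library, and 0 on the graft class scale, where 8 fell. Itgb8, the integrin subunit that activates latent TGF-beta, went from 17.3, 55.2 and 27.5 to 2.08, 1.92 and 1.98 FPKM (-3.36 ± 0.34, adjusted p = 9.82e-05, -2.61 against primary tumor 1) and stood at 94.2, 105 and 118 in sorted tubule cells.

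**Figure D5:**
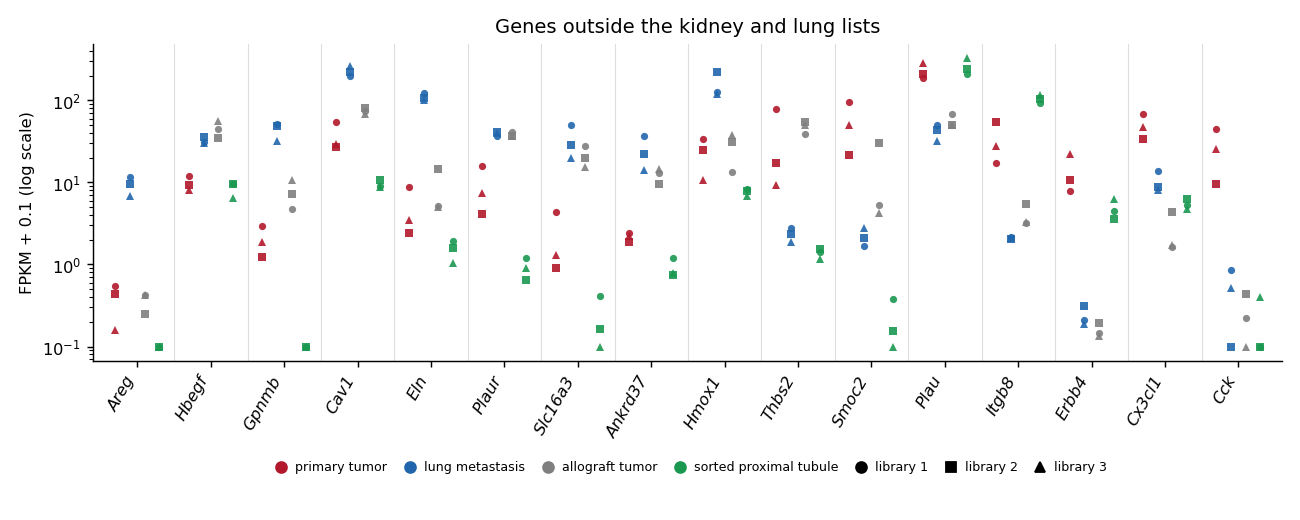
FPKM + 0.1 of 16 genes outside the kidney and lung lists in 12 libraries, log scale; color marks the group and shape the library number. From Areg to Hmox1 the 3 metastases lie above all 3 primary tumors, and from Thbs2 to Cck below them. Of all genes tested, 21.9% lie above and 20.1% below in this way.

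Of 9 genes of the EGF family tested, 3 ligands rose and 2 receptors fell. Areg, amphiregulin, a known YAP target, was at 0.447, 0.332 and 0.05903 FPKM in the primary and 11.7, 9.396 and 6.75 FPKM in the metastatic tumors (2.99 ± 0.19, adjusted p = 4.46e-06), and at 0.329, 0.152 and 0.319 in the allografts. Hbegf, heparin-binding EGF, went from 12.03, 9.18 and 8.03 to 30.8, 35.8 and 30.2 FPKM (1.64 ± 0.21, adjusted p = 5.64e-04, 1.35 against primary tumor 1). Egfr was not called (41.6, 35.7 and 19.3 against 38.5, 31.5 and 29.2 FPKM, 0.09 ± 0.3, adjusted p = 0.854). Erbb4, a neuregulin receptor of the distal nephron, fell from 7.84, 10.5 and 21.9 to 0.113, 0.214 and 0.0879 (-3.55 ± 0.31, adjusted p = 3.57e-05). The smaller changes of the ligand Ereg (0.68 ± 0.19, adjusted p = 0.0303) and the receptor Erbb2 (-0.68 ± 0.21, adjusted p = 0.0414) were called without primary tumor 1 but not without any 1 other library (adjusted p up to 0.102 and 0.129). Of 13 genes known as renal carcinoma markers 3 rose and 2 fell, the falls being 2 without primary tumor 1 and 0 to 1 without any 1 other library. Gpnmb, a melanosomal glycoprotein used as a marker of TFE3-driven renal tumors and also expressed by macrophages, stood at 2.89, 1.12 and 1.78 FPKM in the primary and 51.3, 48.3 and 31.8 FPKM in the metastatic tumors (3.95 ± 0.3, adjusted p = 1.31e-05). Cav1, the caveolin of endothelium and type 1 cells, was at 55.3, 26.95 and 29.6 against 197, 223 and 260.1 FPKM (2.64 ± 0.24, adjusted p = 5.32e-05). Car9, the hypoxia-driven carbonic anhydrase of clear cell carcinoma, was not called (1.6, 5.303 and 2.701 against 5.25, 2.22 and 1.42 FPKM). Amphiregulin, heparin-binding EGF, GPNMB and caveolin are also made in normal lung, whose genes rose in the same libraries, and the part of lung in these rises was not tested.

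Some genes of glycolysis and hypoxia rose, and fatty acid oxidation genes fell. Of 18 glycolysis genes 4 rose (4 without primary tumor 1 and 2 to 4 without any 1 other library) and none fell. Slc16a3, the lactate exporter MCT4, was at 4.29, 0.8102 and 1.21 FPKM in the primary and 50.5, 28.7 and 19.8 FPKM in the metastatic tumors (3.52 ± 0.43, adjusted p = 3.57e-04, 2.58 against primary tumor 1), with 27.5, 19.9 and 15.2 in the allografts. Pkm, pyruvate kinase, went from 213, 117 and 184 to 636, 442 and 351 FPKM (1.47 ± 0.3, adjusted p = 0.00836, 1.11 against primary tumor 1, adjusted p = 0.165). Gapdh was not called (0.15 ± 0.4, adjusted p = 0.829). Among 18 hypoxia genes 5 rose (7 without primary tumor 1 and 2 to 5 without any 1 other library) and 1 fell; Ankrd37, a direct HIF target, was at 2.31, 1.77 and 2.096 FPKM in the primary and 36.6, 22.3 and 14 FPKM in the metastatic tumors (2.95 ± 0.3, adjusted p = 8.96e-05). Adm, adrenomedullin, was at 5.91, 5.21 and 2.42 against 34.9, 25.7 and 16.8 FPKM (2.29 ± 0.39, adjusted p = 0.00286). Vegfa was not called (1.18 ± 0.46, adjusted p = 0.0907). Of 18 fatty acid oxidation genes 7 fell, median -1.58 but -0.27 against primary tumor 1, with 17 without primary tumor 1 and 1 to 3 without any 1 other library. Among 16 respiratory chain genes limma called none (9 at an unadjusted p under 0.05), and their medians were 0.01, -2.26 and -1.02 against primary tumors 1, 2 and 3. Without primary tumor 1 all 16 were called lower. Ppargc1a, the coactivator of mitochondrial genes, fell from 3.91, 17.3 and 19.4 to 0.939, 0.7302 and 0.881 FPKM (-2.73 ± 0.43, adjusted p = 0.00192). Hmox1, the heme-degrading enzyme, rose from 33.8, 25.2 and 10.5 to 128, 222 and 119.8 (2.79 ± 0.45, adjusted p = 0.00218). Nqo1, like Hmox1 a target of NRF2, fell (-2.54 ± 0.69, adjusted p = 0.0284), a call kept without primary tumor 1 and lost without any 1 other library (adjusted p up to 0.101).

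Leukocyte genes differed by cell type. Of 7 neutrophil genes 6 rose. The calprotectin gene S100a8 was at 23.8, 4.04 and 1.595 FPKM in the primary and 101, 177 and 216 FPKM in the metastatic tumors (4.52 ± 0.75, adjusted p = 0.00254), and lactoferrin, Ltf, at 0.692, 0.412 and 0.206 against 33.5, 44.96 and 26.4 FPKM (4.63 ± 0.2, adjusted p = 2.08e-07). Of 14 macrophage genes 2 rose, a share close to the 11.3% of all genes. 1 of them was Lyz2, the myeloid lysozyme also made by type 2 cells (1198, 197 and 318 to 3678, 4493 and 4363 FPKM, 3.3 ± 0.62, adjusted p = 0.00528). The complement gene C1qa was not called (411, 55.4 and 55.1 against 371, 290.0 and 242 FPKM). The macrophage median was -0.45 against primary tumor 1, and 12 of the genes rose without that tumor and 1 without any 1 other library. T and NK cell genes summed to 56.2, 51.3 and 61.4 against 57.7, 69.8 and 89.5 FPKM. Of 13 tested 2 rose (1 without metastasis 2 or metastasis 3), a share close to the 11.3% of all genes. Gzma, a granzyme, was among them (2.29 ± 0.32, adjusted p = 8.56e-04), and Cd3e of the T cell receptor complex was not called (-0.41 ± 0.22, adjusted p = 0.22). Of 9 B and plasma cell genes 4 rose, such as the receptor chain Cd79b (4.08, 5.88 and 7.96 to 12.3, 18.2 and 22.6 FPKM, 1.42 ± 0.31, adjusted p = 0.0101), and Jchain, the joining chain of secreted antibody, fell (-1.64 ± 0.42, adjusted p = 0.0219). Cd79b was the 1 rise left without metastasis 2 or metastasis 3, and the fall of Jchain was lost without primary tumor 2, primary tumor 3, metastasis 1 or metastasis 2 (adjusted p up to 0.0889). The summed level of the list was 128, 314 and 466 against 141, 227 and 265 FPKM, with overlap between the groups. Among 13 antigen presentation genes limma called none (3 at an unadjusted p under 0.05; H2-Aa -0.32 ± 0.52), but 6 were called higher without primary tumor 1, and the medians were -0.08, 0.85 and 0.65 against primary tumors 1 to 3. Of 15 interferon genes none rose and 1, the chemokine gene Cxcl9, fell (-0.74 ± 0.17, adjusted p = 0.0154, not called without primary tumor 3, metastasis 1 or metastasis 3). Without primary tumor 1, 13 of the 15 were called higher, and the medians were -0.24, 1.95 and 1.4 against primary tumors 1 to 3. The checkpoint ligand Cd274 was at 5.78, 3.33 and 6.68 against 8.17, 12.4 and 9.92 FPKM (not called, 0.86 ± 0.35, adjusted p = 0.104). Havcr2, the checkpoint receptor TIM-3 of T and myeloid cells, rose (1.81 ± 0.3, adjusted p = 0.00241).

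Chemokine and vessel genes moved in both directions. Of 19 chemokine genes 3 rose and 2 fell, shares close to the 11.3% and 9.59% of all genes. Their median was 1.58 but -0.07 against primary tumor 1. The risen count was 11 without primary tumor 1 and 1 to 2 without any 1 other library. Ccl3, a macrophage inflammatory protein, rose from 4.99, 0.475 and 1.27 to 11.8, 20 and 13.1 FPKM (2.52 ± 0.48, adjusted p = 0.00575), and so did Ccl6 (3.79 ± 0.92, adjusted p = 0.0176) and Cxcl14 (1.7 ± 0.47, adjusted p = 0.0306). The call of Ccl6 was lost without primary tumor 2, primary tumor 3, metastasis 2 or metastasis 3, and that of Cxcl14 without any 1 library other than primary tumor 1 (adjusted p up to 0.0736 and 0.102). Cx3cl1, the membrane-bound chemokine fractalkine, fell from 68.7, 33.6 and 46.9 to 13.8, 8.75 and 7.94 FPKM (-2.16 ± 0.34, adjusted p = 0.00168). Ccl19, which draws lymphocytes to lymphoid tissue, went from 8.36, 14.6 and 22.04 to 0.405, 0.732 and 0.647 (-3.24 ± 0.31, adjusted p = 7.62e-05); both were below primary tumor 1 as well (-2.68 and -2.56). Of 13 endothelial genes 7 rose (7 without primary tumor 1 and 4 to 7 without any 1 other library) and 1 fell. The junction genes Cdh5 (19.3, 10.8 and 18.8 to 52.9, 81.5 and 91.4 FPKM, 2.15 ± 0.32, adjusted p = 0.00133) and Cldn5 (2.47 ± 0.27, adjusted p = 1.59e-04) rose, as did Pecam1 (1.65 ± 0.29, adjusted p = 0.00374). Metastasis 1, the lowest in lung genes, was also the lowest of the 3 for 12 of these 13 genes. The part of lung capillaries, whose list also rose, was not tested. Hbb-bs, the adult beta globin, was at 139, 891 and 724 against 1177, 2901 and 3255 FPKM (2.32 ± 0.72, adjusted p = 0.0452, not called without primary tumor 1, primary tumor 3, metastasis 2 or metastasis 3, adjusted p up to 0.138).

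Immediate early, TGF-beta and stromal genes rose in part. Of 14 AP-1 and immediate early genes 6 rose and none fell (median 1.19, 0.79 against primary tumor 1); the count was 8 without primary tumor 1 and 2 to 7 without any 1 other library. Ier3, a stress-induced survival gene, was at 22.2, 22.4 and 16.5 FPKM in the primary and 64.9, 64.5 and 47.98 FPKM in the metastatic tumors (1.49 ± 0.23, adjusted p = 0.00166), and the stress factor Atf3 at 9.22, 2.22 and 2.601 against 15.5, 21.2 and 17.9 FPKM (1.96 ± 0.4, adjusted p = 0.00802). Fos was at 12, 4.28 and 10.2 against 16.8, 48.8 and 61.7 FPKM (2.06 ± 0.66, adjusted p = 0.0496), lowest of the metastases in metastasis 1, and its call was lost without primary tumor 2, primary tumor 3, metastasis 2 or metastasis 3 (adjusted p up to 0.159). Of 13 TGF-beta genes 5 rose (9 without primary tumor 1 and 2 to 3 without any 1 other library); Tgfb3, a ligand, was at 21.7, 1.78 and 1.93 against 47.6, 32.6 and 32.5 FPKM (2.74 ± 0.66, adjusted p = 0.0169; lost without primary tumor 2, primary tumor 3 or metastasis 1, adjusted p up to 0.071).

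Contractile genes rose in part, and fibroblast genes moved in both directions. Of 8 smooth muscle genes 2 rose and none fell (median 0.56, -0.24 against primary tumor 1), with 4 risen without primary tumor 1 and 1 without any 1 other library. Of 10 fibroblast genes 3 rose and 1 fell, with 4 risen without primary tumor 1 and 1 to 2 without any 1 other library. Cnn1, calponin of smooth muscle, rose from 15.3, 1.33 and 1.88 to 37.3, 28.7 and 34.04 FPKM (2.83 ± 0.58, adjusted p = 0.00775), and Col13a1, a collagen of alveolar fibroblasts, from 0.587, 0.507 and 0.565 to 6.11, 5.74 and 10.5 (2.4 ± 0.22, adjusted p = 5.51e-05). Dcn, the fibroblast proteoglycan decorin, fell from 130.4, 40.9 and 98.6 to 18.8, 29.04 and 36.9 FPKM (-1.53 ± 0.49, adjusted p = 0.0488), with the call kept without primary tumor 2 and lost without any 1 other library (adjusted p up to 0.153). Msln, mesothelin of mesothelium and some carcinomas, rose from 2.67, 0.2498 and 1.24 to 14.3, 13.7 and 9.698 FPKM (2.63 ± 0.46, adjusted p = 0.00328), while Gpm6a, a membrane glycoprotein on the same list, fell (-1.87 ± 0.54, adjusted p = 0.0365, called without primary tumor 1 but not without any 1 other library, adjusted p up to 0.126).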

How the data were processed

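RNA-seq FPKM values of 12 libraries (24432 genes) were used as deposited; Salmon, bcl2fastq 2.17.1.14 and builds GRCm38 and mm10 are named in the submitters' processing notes, and no source used here says how FPKM was derived. From these, log2(FPKM + 1) was computed, and genes at 1 FPKM or more in 3 libraries were kept (16313). All 4 groups were fitted in limma 3.58.1 with a mean-variance trend, and the contrast was adjusted by Benjamini-Hochberg. Gene positions came from GENCODE M21, which matched 24222 genes, and promoters from RefSeq. Depth was estimated from steps between low values; the sorted tubule libraries gave none. On simulated data the fit recovered 38%, 82%, 88% and 94% of log2 changes of 1, 2, 3 and 5. These shares describe the simulated data alone. Recovery in the real libraries was not tested, and there the lowest correlation within any group, 0.797, was among primary tumors. The contrast, classes, lists and tests were chosen with earlier results of these data known. Alternatives changed the pseudocount, filter, scaling, weights, groups fitted, block and libraries. Genes were named by a rule: targets, fixed anchors, the 8 largest called rises and falls without overlap overall and per class, and the 3 largest per list with its most abundant member. Some genes that this rule names are not reported here. Abca3, Amotl2, Aqp1, Cyp4b1, Hao2, Hoxa11, Hoxb9, Napsa, S100g and Sall1 fall outside it and were chosen after their values were seen.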

Additional observations from a re-analysis of the deposited data

How the results depend on the processing

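Counts of higher and lower genes were within 1.5 times of 1849 and 1565 with pseudocounts of 0.1 and 5, without a filter, with a 5 FPKM filter, and under TPM, median-of-ratios, quantile and protein-coding scaling. Scaling to the graft class gave 719 higher and 6513 lower genes and 212 higher genes of the graft class; array weights gave 5246, 4497 and 901. Fitting only the 6 libraries gave 712 and 463, with 134 lower tubule class and 76 higher graft class genes. Leaving out 1 library gave 849 to 3299 higher and 705 to 2969 lower genes, 256 to 575 lower tubule class genes and 117 to 806 higher graft class genes, with the highest values without primary tumor 1. Primary tumor 1 alone gave 603 and 552, with 227 tubule and 58 graft class genes. The cause of these shifts was not tested. The 6-library and single-tumor fits use fewer samples, and the 6-library fit takes its spread from primary tumors and metastases only. Of 3414 called genes 1408 kept their call in all 6 fits that left out 1 library. With the replicate number as a block the counts were 242 and 104, with 39 tubule and 26 graft class genes. By the Xist and Ddx3y patterns above, libraries numbered 2 and 3 do not pair by mouse, so this block has no such basis. Same-numbered libraries correlated at 0.068, -0.0046 and 0.057 in their deviations, which gives no sign of pairing. Metastases 1 and 3, but not 2, correlated best with their own number. Of 153 named genes, 3 that rose reversed on the graft class scale, Wwtr1 at -0.47, Gata5 at -0.24 and Cdkn2d at -0.0477, where all genes had a median of -0.97.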

Other observations

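Some genes at similar level in allograft tumors and sorted tubule cells, the shared class, differed between the 2 sites. They were picked as large called changes without overlap, so the gap between the groups was fixed by the choice. Of this class 2% were called higher and 4.24% lower, and of all genes 21.9% lay above and 20.1% below without overlap. Neither reference holds lung, so this class does not set lung genes apart. Acot7, an acyl-CoA thioesterase, was at 26.6, 13 and 9.21 FPKM in the primary and 60.1, 64.3 and 61.04 FPKM in the metastatic tumors (1.99 ± 0.3, adjusted p = 0.00133), and Elovl1, an elongase of very long fatty acids, at 31.1, 48.8 and 27.5 and 85.1, 134 and 126 FPKM (1.67 ± 0.25, adjusted p = 0.00126). Snx25, a sorting nexin, rose from 5.96, 13.6 and 6.91 to 26.7, 26.5 and 30.1 (1.63 ± 0.27, adjusted p = 0.00257). The actin-binding gene Aif1l fell from 56.7, 96.2 and 97.03 to 24.8, 15.98 and 13.7 FPKM (-2.14 ± 0.3, adjusted p = 8.87e-04). All 4 were also called against primary tumor 1 alone (1.18, 1.83, 2.05 and -1.63).

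Other falls were in genes with means under 1 FPKM in both references. Where the metastases were under 1 FPKM too, as for Cck and Ccl28, a gene could pass the filter through the primary tumors alone. Such a gene could then hardly rise, so its fall is a description and not a test. Cck, the peptide hormone cholecystokinin, was at 45.2, 9.45 and 25.8 FPKM in the primary and 0.758, 0 and 0.415 FPKM in the metastatic tumors (-4.12 ± 0.44, adjusted p = 1.51e-04), highest in primary tumor 1. Ccl28, a mucosal chemokine, fell from 6.85, 26 and 13.9 to 0.424, 0.8399 and 0.524 FPKM (-3.21 ± 0.38, adjusted p = 3.23e-04), and Serpina10, a protease inhibitor of clotting, from 25.7, 4.39 and 6.72 to 1.16, 1.31 and 1.17 (-2.23 ± 0.5, adjusted p = 0.0125). Among rises outside the lists, the acute phase genes Hp, haptoglobin, and Saa3, serum amyloid A, were at 229.9, 329 and 342 and 99.03, 151 and 106 FPKM in the metastases, 4.03, 0.819 and 0.832 and 1.53, 1.36 and 1.01 in the primary tumors and 308, 1247 and 74.7 and 79.2, 204 and 40.5 in the allograft tumors (6.86 ± 0.8, adjusted p = 2.70e-04, and 5.68 ± 0.45, adjusted p = 1.76e-05). Retnla, a resistin-like protein of type 2 inflammation, went from 96.9, 0.735 and 0.327 to 1224, 2658 and 1654 FPKM (8.17 ± 1.35, adjusted p = 0.00242), and Arg1, arginase of alternatively activated macrophages, from 8.88, 0.314 and 0.418 to 60.3, 59.8 and 31.8 (4.23 ± 0.67, adjusted p = 0.00185). In the tubule class 3 genes rose. 1 of them was Scnn1a, a sodium channel subunit shared by collecting duct and lung epithelium (4.43, 12.1 and 17.9 to 32.5, 35.7 and 37.1 FPKM, 1.71 ± 0.37, adjusted p = 0.0103).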
